A study of Homo sapiens with 22 samples.

Results

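THP-1 cells exposed to 1 µM BRM014 for 72 h were compared with THP-1 cells given DMSO, the solvent. THP-1 is an established human acute myeloid leukaemia line of monocytic type that carries a KMT2A-MLLT3 fusion. The comparison took the 2 libraries titled as THP-1 with BRM014 for 72 h and the 2 titled as THP-1 with DMSO, which are 4 of the 22 libraries of the series, and all 28063 gene symbols counted in them. All 4 libraries are of cells labelled WT, grown in RPMI medium with serum, and hold polyadenylated RNA sequenced on an Illumina instrument. Other groups of 2 libraries each were used for side-by-side values. They were THP-1 with 1 µM BRM014 for 24 h, THP-1 with 10 nM of the phorbol ester PMA for 48 h followed by 24 h of rest, and THP-1 with 3 µM of the PU.1 inhibitor DB2313 for 72 h. The same 72 h exposure and its DMSO control were also available in MOLM-13 and MV-4-11, a further pair of leukaemia lines with KMT2A fusions. The labels do not give how long the DMSO cells of any line were kept, so 72 h of BRM014 and time in culture cannot be told apart. They do not say whether replicates were separate cultures, so the p-values rest on a spread between libraries that could be technical only.

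BRM014 blocks the ATPase activity of SMARCA4 (BRG1) and SMARCA2 (BRM), the alternative motor subunits of the SWI/SNF complexes, which slide and evict nucleosomes and keep enhancers accessible. In blood cells these complexes work beside lineage transcription factors such as PU.1, C/EBP and RUNX1, whose binding at enhancers depends on open chromatin. PU.1, encoded by SPI1, is needed to make monocytes and macrophages, and many of its targets are receptors and enzymes of these cells.

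The libraries with BRM014 held 18092647 and 16310590 reads in genes and those with DMSO 15963477 and 20207185. Levels are given as CPM, counts scaled to a common library size with TMM factors, in replicate order. At 0 reads in a library, a level of up to 0.149 to 0.188 CPM is still possible. CPM are not divided by transcript length, so levels are compared between groups and not between genes. Replicates correlated at r = 0.986 in both groups (log2 CPM across genes), and their counts differed by more than counting error. The share of reads outside annotated genes was 19.2% and 18.8% with BRM014, against 16.5% and 15.8% with DMSO. Its part in the results was not tested. All 11 monocytic markers checked, CD33, LYZ, CD68, ITGAM, ITGB2, CSF1R, FCER1G, TYROBP, MPO, SPI1 and PTPRC, averaged over 1 CPM in both groups, and their summed level was 2634 and 2615 CPM with BRM014, against 4219 and 4100 CPM with DMSO. LYZ carried this difference in the sum. Without it the other 10 summed to 2546 and 2524 CPM with BRM014, against 2286 and 2328 CPM with DMSO. Sums follow the most abundant members. Taken singly, 7 of the 11 were lower and 2 higher at an adjusted p under 0.05 (edgeR quasi-likelihood F test). Of all genes tested, 28.0% were lower and 30.9% higher. Of the 9 erythroid and megakaryocyte markers, HBB, PF4 and PPBP had no read in any of the 4 libraries, and the list summed to 6.24 and 7.42 CPM with BRM014, against 1.63 and 1.30 CPM with DMSO. The 8 lymphoid markers summed to 5.14 and 6.55 CPM with BRM014, against 10.7 in both DMSO libraries, and MS4A1 had no read. In bulk libraries, fewer cells of a kind and less RNA per cell cannot be told apart.

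After 72 h of BRM014, most measured genes differed from DMSO. Of 16794 genes with enough reads to test, 5188 were called higher and 4697 lower at an adjusted p under 0.05 (edgeR quasi-likelihood F test, Benjamini-Hochberg), which is 30.9% and 28.0% of genes tested and 58.9% together. With a change of at least 2-fold as well, 2793 were higher (16.6%) and 1935 lower (11.5%). The median log2 fold change of all genes tested was 0.06. These shares are the background for the gene lists below, and "rose" and "fell" refer to calls at that adjusted p. Values after ± are standard errors of the log2 fold change unless marked SD. They come from the fit of all 22 libraries, in which the spread is estimated over all groups. They are not the spread of the 2 libraries in each group alone. Without the BRM014 or DMSO libraries one at a time, 4340 to 4581 genes were called higher and 4092 to 4257 lower.

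**Figure D1:**
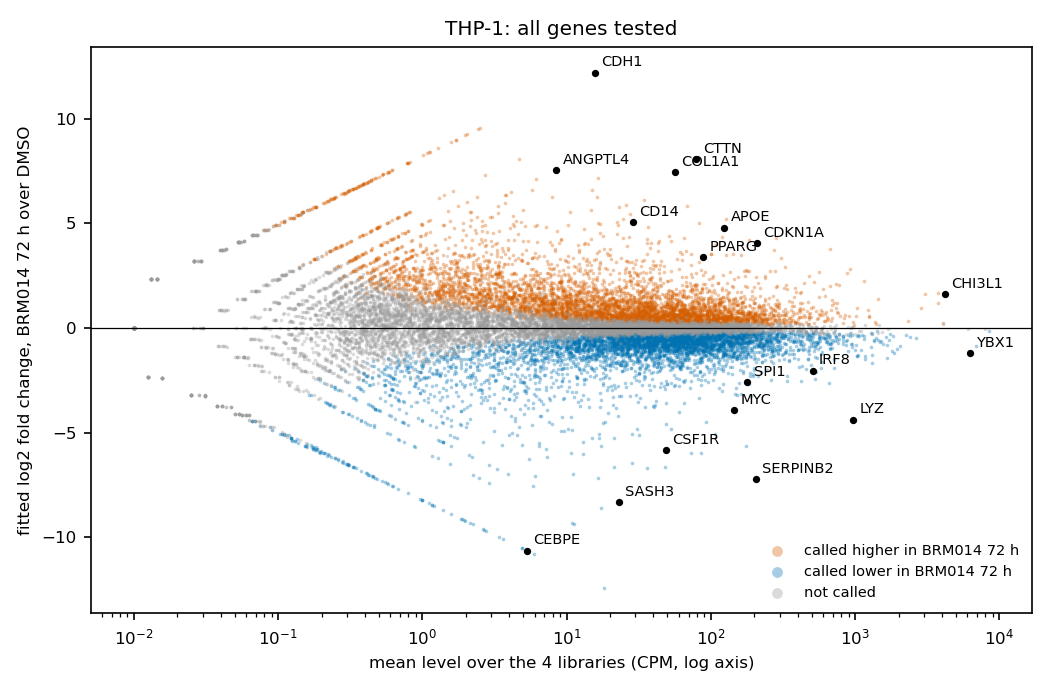
Fitted log2 fold change of BRM014 72 h over DMSO in THP-1 cells (vertical) against the mean level over the 4 libraries in CPM (horizontal, log axis), 1 point for each of the 16794 genes tested; orange and blue points were called at an adjusted p under 0.05. Named genes are black, and the straight streaks are genes with no or few reads in 1 group, whose fitted values are not bounds.

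The drug targets themselves were transcribed in both groups. SMARCA4 (chromosome 19, 10960825 to 11079426, plus strand, GENCODE v29 on GRCh38) was at 206 and 223 CPM in the BRM014 libraries, against 313 and 309.7 CPM in the DMSO libraries, a log2 fold change of -0.54 ± 0.07 (adjusted p = 9.12e-07). SMARCA2 was at 261.5 and 262.4 CPM in the BRM014 libraries, against 362 and 346 CPM in the DMSO libraries (-0.43 ± 0.06, adjusted p = 2.48e-06). Both fell by less than 2-fold, with no overlap between groups. Of 27 SWI/SNF subunit genes, all tested, 7 rose, 9 fell and 11 were not called, with a median of -0.06. The core subunit SMARCC1 fell to 125 and 124 CPM with BRM014, against 246 and 247 CPM with DMSO (-0.98 ± 0.07). BICRAL and BICRA, alternative members of the GBAF form of the complex, rose (1.40 ± 0.10 and 0.99 ± 0.15). BICRAL was at 128 and 129.5 CPM in the BRM014 libraries, against 49.7 and 48.2 CPM in the DMSO libraries. SMARCB1, another core subunit, was called lower on the strength of 1 library, as it was at 1.99 and 1.797 CPM in the BRM014 libraries, against 1.56 and 16.4 CPM in the DMSO libraries. Without DMSO replicate 2 its log2 fold change was 0.28 (adjusted p = 0.857).

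The transcription factors that define monocytic cells moved in different directions. SPI1 fell to 52.3 and 49.7 CPM with BRM014, against 299 and 315 CPM with DMSO (-2.59 ± 0.12, adjusted p = 5.46e-13). IRF8, a partner of PU.1 in monocyte and dendritic cell development, fell to 202 and 195 CPM, against 817 and 816 CPM (-2.04 ± 0.09). LYL1, a basic helix-loop-helix factor of blood progenitors, fell (-2.69 ± 0.19), and MYB, which keeps progenitors cycling, fell to 383 and 363 CPM with BRM014, against 664 and 682 CPM with DMSO (-0.85 ± 0.07). CEBPA, the C/EBP factor that works with PU.1 in myeloid cells, was at 529 and 577 CPM in the BRM014 libraries, against 519.5 and 540.0 CPM in the DMSO libraries (0.06 ± 0.10, adjusted p = 0.629), so the groups overlapped. The sign of this value turned when BRM014 replicate 2 was left out (-0.0012). CEBPE, the C/EBP factor of late granulocyte maturation, had no read in the BRM014 libraries and 11.2 and 10.1 CPM in the DMSO libraries, at least 128.5-fold lower against a floor of 3 counts over the group. CEBPB rose modestly (0.67 ± 0.16). KLF2, a zinc finger factor of quiescent leukocytes, rose to 90.1 and 74.5 CPM with BRM014, against 5.57 and 3.95 CPM with DMSO (4.13 ± 0.16). BACH2, a repressor best known from B cells, also rose (3.34 ± 0.57) from a low level. Over the 32 tested members of the list of blood transcription factors, 12 rose, 14 fell and 6 were not called, with a median of -0.13.

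Genes activated by PU.1 in myeloid cells mostly fell. Of 37 tested, 24 fell and 5 rose, against 28.0% and 30.9% of all genes tested, with a median log2 fold change of -1.28. CSF1R, the receptor of macrophage colony-stimulating factor, fell to a mean of 1.65 ± 0.0389 CPM with BRM014, against 96.0 ± 5.77 CPM with DMSO (SD, n = 2 each), a log2 fold change of -5.85 ± 0.17 (adjusted p = 3.45e-16). MSR1, a scavenger receptor, had no read with BRM014 and 2.003 and 1.199 CPM with DMSO, at least 18.84-fold lower. The exceptions in the other direction included CD14, the co-receptor for bacterial lipopolysaccharide, which rose to 53.2 and 59.2 CPM with BRM014, against 1.63 and 1.699 CPM with DMSO (5.07 ± 0.21). NCF1, a cytosolic part of the NADPH oxidase with near-identical gene copies in the genome, rose (3.25 ± 0.16), so its count is uncertain. The groups did not overlap in these genes, as in 42.0% of all genes tested with BRM014 above DMSO and 36.6% with BRM014 below it.

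Promoter sequences were read from RefSeq (GRCh38.p14) for the list members with an entry, to show what lies before genes of this list that fell. The motif GAGGAAGT, a form of ETS site that PU.1 binds, was searched on both strands in the 250 bases before each start, alone and without regard to other motifs. It was in 8 of the 38 windows of 24 matched PU.1 target genes, against 2.17% of the 35116 windows of all promoters and 2.43% of those of genes tested. The 3 members below are those with a match whose falls were largest, and the capitals mark the motif or its reverse complement.
AIF1, chr6:31615928-31615990, plus strand: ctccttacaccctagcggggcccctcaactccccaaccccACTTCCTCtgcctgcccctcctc
BTK, chrX:101390797-101390865, minus strand: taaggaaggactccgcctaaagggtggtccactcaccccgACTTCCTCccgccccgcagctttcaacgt
PRTN3, chr19:840871-840958, plus strand: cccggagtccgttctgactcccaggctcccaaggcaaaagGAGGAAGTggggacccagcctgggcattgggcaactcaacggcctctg
AIF1, a calcium-binding protein of macrophages, had a log2 fold change of -3.96 ± 0.44 and was at 0.157 and 0.174 CPM in the BRM014 libraries, against 2.63 and 2.698 CPM in the DMSO libraries, with 3 reads in each BRM014 library. BTK, a cytosolic tyrosine kinase downstream of immune receptors, was at 9.28 and 10.9 CPM in the BRM014 libraries, against 118 and 122 CPM in the DMSO libraries (-3.57 ± 0.09). PRTN3, a serine protease of neutrophil and monocyte granules, was at 2.57 and 1.51 CPM in the BRM014 libraries, against 22.2 and 18.5 CPM in the DMSO libraries (-3.30 ± 0.75). These 3 genes fell in both BRM014 libraries. A match of letters is a description of the promoter and not evidence of binding.

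**Figure D2:**
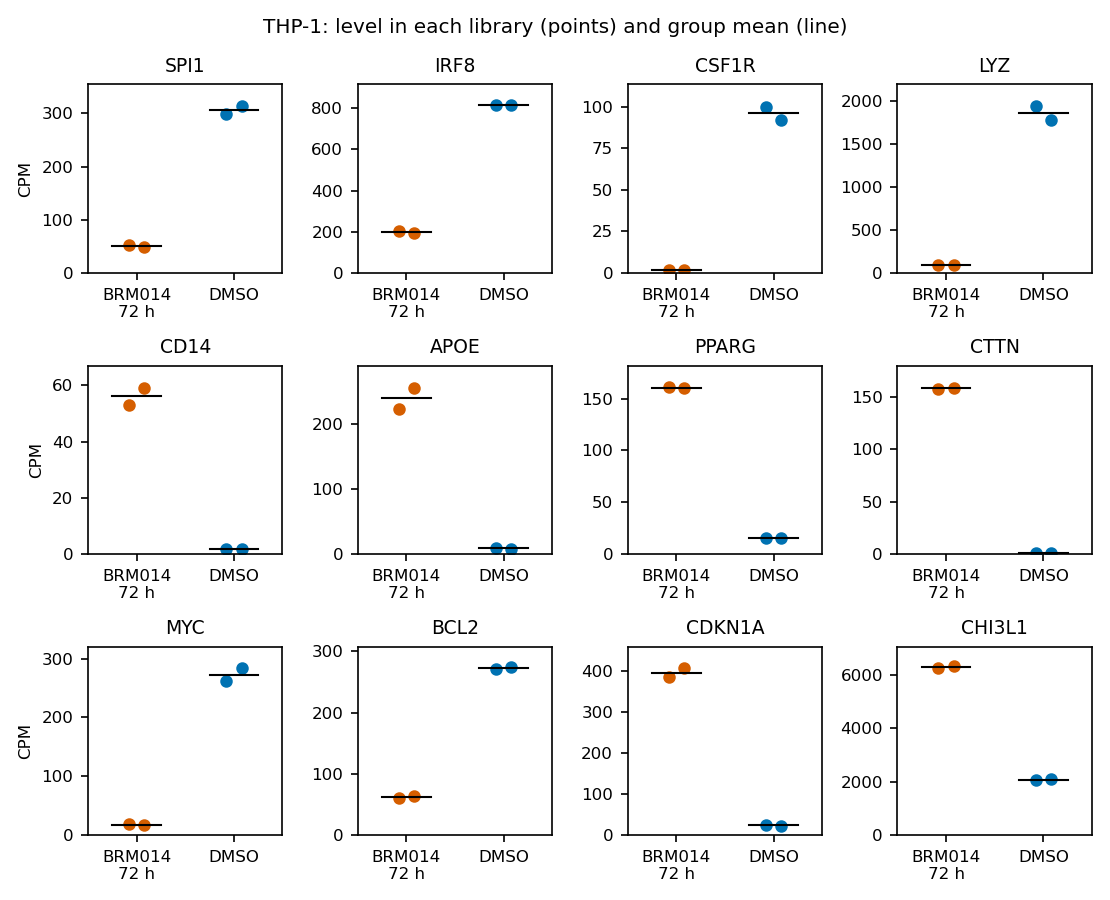
Level in CPM of 12 genes in each THP-1 library (points; BRM014 72 h left, DMSO right), with the group mean as a line; every vertical axis starts at 0. SPI1, IRF8, CSF1R, LYZ, MYC and BCL2 are lower in both BRM014 libraries, and CD14, APOE, PPARG, CTTN, CDKN1A and CHI3L1 are higher in both.

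Fc and ITAM receptor genes fell more often than they rose, and Toll-like receptor genes moved in both directions. Among 19 Fc and ITAM receptor genes tested, which couple antibody and lectin recognition to kinases, 10 fell and 2 rose (median -1.36). Of all genes tested, 28.0% fell and 30.9% rose, and these shares also apply to the Toll-like receptor counts below. CLEC5A, a lectin-like activating receptor, had no read with BRM014 and 5.76 and 4.697 CPM with DMSO, at least 62.57-fold lower, and CLEC7A (dectin-1), which binds fungal glucans, had 1 read in all with BRM014, against 30 with DMSO. TREM1, an amplifier of inflammatory signals, rose to 3.88 and 5.27 CPM with BRM014, against 1.19 and 1.25 CPM with DMSO (1.89 ± 0.30), and the kinase gene LYN rose slightly (0.40 ± 0.11). Of 21 Toll-like receptor and adapter genes, 7 rose and 8 fell (median -0.26); without DMSO replicate 2, 4 rose. CD180, a Toll-like receptor homologue, had no read with BRM014 and 10.4 and 9.09 CPM with DMSO, at least 117.4-fold lower. LY86, its secreted partner, fell to 0.157 and 1.27 CPM, against 19.6 and 19.8 CPM (-4.82 ± 0.46). IRAK2, a kinase of the MyD88 pathway, rose (2.59 ± 0.24).

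MHC class II genes, which present antigen to helper T cells, fell. Of 7 genes of MHC class II and CIITA that could be tested, 5 fell and none rose (median -2.46), and 3 fell without BRM014 replicate 2. HLA-DRA had no read with BRM014 and 0.751 and 1.199 CPM with DMSO, at least 12.11-fold lower. HLA-DQB1 was at 0.682 and 1.101 CPM in the BRM014 libraries, against 11.1 and 10.3 CPM in the DMSO libraries (-3.59 ± 0.45). HLA genes have close paralogues, so their single values are uncertain. In the 17 genes of MHC class I presentation, 4 rose and 6 fell (median -0.18). NLRC5, the transactivator of class I genes, rose to 219 and 234 CPM with BRM014, against 59.4 and 57.4 CPM with DMSO (1.96 ± 0.09). The immunoproteasome subunit PSMB10 fell to 36.2 and 37.04 CPM, against 156 and 158 CPM (-2.10 ± 0.15).

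Lysozyme was among the genes with the largest loss in level. LYZ (chromosome 12, 69348341 to 69354234, plus strand), which encodes the secreted enzyme that cuts bacterial walls, fell to 87.2 and 91.1 CPM with BRM014, against 1933 and 1772 CPM with DMSO (-4.38 ± 0.08, adjusted p = 7.38e-19). Among 21 granule protein genes tested, 7 fell and 5 rose (median -0.13). The antimicrobial peptide gene CAMP rose to 25.33 and 25.33 CPM with BRM014, against 2.44 and 0.6995 CPM with DMSO (4.06 ± 0.37). Of the 8 NADPH oxidase genes, which make superoxide, 4 fell and 1 rose. CYBB, the membrane-bound catalytic subunit, fell to 2.78 and 2.15 CPM, against 20.3 and 21.3 CPM (-3.07 ± 0.19).

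Markers of macrophages moved in both directions, with more falls than rises. Of 34 tested, 10 rose and 14 fell, against 30.9% and 28.0% of all genes tested, with a median of -1.15. All 14 falls were at least 2-fold, as were 8 of the rises, against 11.5% and 16.6% of all genes tested. APOE, an apolipoprotein secreted by macrophages, rose to 223 and 256 CPM with BRM014, against 8.95 and 8.39 CPM with DMSO (4.79 ± 0.19, adjusted p = 3.02e-14). The costimulatory ligand CD86 had no read with BRM014 and 0.501 and 0.3497 CPM with DMSO, at least 5.046-fold lower. ITGAM, the integrin CD11b that marks myeloid maturation, was at 28.9 and 27.8 CPM in the BRM014 libraries, against 30.7 and 24.7 CPM in the DMSO libraries (0.04 ± 0.10, adjusted p = 0.768), and the sign of this small value depended on which libraries entered the fit. ITGAX, the CD11c integrin, fell to 9.76 and 8.29 CPM, against 53.3 and 49.2 CPM (-2.50 ± 0.17). The macrophage marker CD68 rose (0.95 ± 0.07). CHI3L1, a chitinase-like protein secreted by macrophages, had the largest rise in level of all genes, at 6253 and 6323 CPM in the BRM014 libraries, against 2062 and 2084 CPM in the DMSO libraries (1.60 ± 0.08). In cells given PMA, which drives THP-1 to adhere and mature, the median of the same 34 genes was 3.69. PMA and BRM014 were set against the same DMSO libraries, so the 2 values are given side by side only.

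Lysosome and autophagy genes rose together. Of 39 lysosome genes, all tested, 27 rose and 4 fell (median 0.91), against 30.9% and 28.0% of all genes tested. Without DMSO replicate 2, 2 fell. SGSH, a sulfatase that degrades heparan sulfate, rose to 33.4 and 32.2 CPM with BRM014, against 1.002 and 1.099 CPM with DMSO (4.95 ± 0.29). CTSF, a cysteine cathepsin, rose to 44.5 and 41.1 CPM, against 2.003 and 1.799 CPM (4.49 ± 0.30). The galactosidase gene GLA went the other way, at 16.99 and 16.9 CPM in the BRM014 libraries, against 71.05 and 69.6 CPM in the DMSO libraries (-2.05 ± 0.11). Of 22 genes of autophagy and the TFEB family, which regulates lysosome genes, 17 rose and 3 fell (median 1.02). The autophagosome protein MAP1LC3A rose (3.79 ± 0.20), as did OPTN, an autophagy receptor (2.78 ± 0.17). TFEC, a member of the TFEB family that is found in macrophages, fell to 33.1 and 30.3 CPM with BRM014, against 136 and 137 CPM with DMSO (-2.11 ± 0.14).

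The E-box CACGTG, a palindrome read by TFEB and its relatives and also by MYC, was searched in the same promoter windows. It was in 9 of the 33 windows of 23 matched lysosome genes (27.3%), in 7 of 40 of the matched genes of MYC and ribosome biogenesis (17.5%), and in 0 of 32 of the matched autophagy and TFEB family genes, against 6.34% of the windows of all promoters and 7.94% of those of genes tested. The lysosome members with a match and the largest rises, under the same exclusion of a chromosome, are shown because the list moved as a group. The E-box is in capitals.
CTSF, chr11:66568612-66568697, minus strand: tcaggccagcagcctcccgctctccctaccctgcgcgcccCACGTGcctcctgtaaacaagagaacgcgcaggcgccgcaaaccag
CTSD, chr11:1763929-1764014, minus strand: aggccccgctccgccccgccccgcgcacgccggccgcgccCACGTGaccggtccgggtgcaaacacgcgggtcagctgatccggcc
MCOLN1, chr19:7522570-7522623, plus strand: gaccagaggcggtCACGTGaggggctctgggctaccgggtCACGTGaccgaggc
CTSD, an aspartic protease of the lysosome, rose to 1205 and 1278 CPM with BRM014, against 304 and 296 CPM with DMSO (2.05 ± 0.09). MCOLN1, a calcium channel of the lysosomal membrane, rose to 28.4 and 39.5 CPM, against 11.2 and 8.79 CPM (1.77 ± 0.14).

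Lipid genes moved in both directions: most tested genes of PPAR and lipid droplets rose, and most of cholesterol and fatty acid synthesis fell. PPARG, the nuclear receptor of lipid storage in macrophages and adipocytes, rose to 161 and 160.1 CPM with BRM014, against 15.4 and 15.44 CPM with DMSO (3.38 ± 0.10, adjusted p = 6.18e-16). ANGPTL4, a secreted lipase inhibitor induced by PPAR receptors, had 614 reads with BRM014 and 3 with DMSO, a ratio of 202.8 with an exact 95% interval of 69.07 to 986.1 that covers counting error only. Of 22 PPAR and lipid droplet genes, 13 rose and 6 fell (median 1.15), and the fatty acid carrier FABP5 fell (-2.06 ± 0.12). Of 12 genes of the liver X receptor (LXR) and sterol efflux, 6 rose, 2 fell and 4 were not called (median 0.51). NR1H3, which encodes LXR alpha, rose to 67.2 and 63.8 CPM, against 9.202 and 11.6 CPM (2.65 ± 0.15), while SREBF1, the factor that drives fatty acid synthesis, fell (-1.10 ± 0.10). Among 24 cholesterol synthesis genes tested, 20 fell and 1 rose (median -1.06). INSIG1, a sterol sensor of the endoplasmic reticulum, fell to 18.4 and 19.4 CPM, against 109 and 114 CPM (-2.56 ± 0.08). The 1 rise was in TM7SF2, a sterol reductase (0.80 ± 0.16). Among 12 fatty acid synthesis genes, 10 fell and none rose (median -1.09). The desaturase gene FADS2 fell to 6.503 and 8.87 CPM, against 86.95 and 93.9 CPM (-3.56 ± 0.13), and FADS1 fell (-2.47 ± 0.10).

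Genes of cell growth fell. MYC, the transcription factor that drives growth and ribosome production, fell to 18.2 and 17.5 CPM with BRM014, against 262 and 284 CPM with DMSO (-3.93 ± 0.09, adjusted p = 3.02e-17). Of the 35 members of the MYC and ribosome list, 32 fell and 0 rose (median -1.34), and 1 rose when library size alone was the scaling or when the 18 libraries without PMA and DB2313 were fitted. RRP12, a ribosome export factor, fell (-1.93 ± 0.13). Of 24 genes of glycolysis and glucose transport, 20 fell and 0 rose (median -1.16), with 1 rise under 3 of the other settings. SLC2A1, the glucose transporter GLUT1, fell to 60.7 and 67.7 CPM, against 308 and 315 CPM (-2.28 ± 0.09), LDHA, lactate dehydrogenase, fell (-1.93 ± 0.09), and ENO1, enolase, fell to 870.3 and 916 CPM, against 2389 and 2475 CPM (-1.45 ± 0.11). The largest falls in level of all genes included YBX1, an RNA-binding protein of proliferating cells, at 3741 and 3831 CPM in the BRM014 libraries, against 8513 and 8791 CPM in the DMSO libraries (-1.19 ± 0.08), and the chaperone gene HSP90AB1, at 1122 and 1120 CPM in the BRM014 libraries, against 2560 and 2600 CPM in the DMSO libraries (-1.20 ± 0.06). Several of these abundant genes have processed pseudogenes, which can take part of their reads.

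Replication and mitosis genes were lower in every member of both lists. All 33 DNA replication genes fell (median -1.27), among them the origin recognition subunit ORC1 (-2.10 ± 0.09) and the helicase subunit MCM3, which was at 184 and 193 CPM in the BRM014 libraries, against 675 and 654 CPM in the DMSO libraries (-1.82 ± 0.06). All 24 mitosis genes fell (median -0.90). The mitotic kinase PLK1 was at 83.2 and 76.6 CPM in the BRM014 libraries, against 204 and 207 CPM in the DMSO libraries (-1.36 ± 0.07), and CENPA, the histone variant of the centromere, fell (-1.28 ± 0.10). Among 21 genes of G1 cyclins, their kinases and inhibitors, 6 rose and 9 fell (median -0.14). CDKN1A, the p21 inhibitor of cyclin-dependent kinases, rose to 384 and 406 CPM with BRM014, against 24.6 and 22.98 CPM with DMSO (4.05 ± 0.09, adjusted p = 2.81e-17). CCND1, cyclin D1, rose to 66.1 and 70.1 CPM, against 4.38 and 3.75 CPM (4.07 ± 0.14), and its partner CDK4 fell (-1.15 ± 0.09). CDK6, the D-cyclin kinase of blood progenitors, was at 524 and 482 CPM in the BRM014 libraries, against 425 and 448 CPM in the DMSO libraries (0.20 ± 0.10, adjusted p = 0.0855), and it was called higher when only the 4 libraries or the 18 without PMA and DB2313 were fitted, or under library size alone (adjusted p = 0.0182, 0.019 and 0.026).

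Genes listed as p53 targets were mostly higher. THP-1 is known to lack functional p53, and what moved these genes was not tested. Of 25 tested, 13 rose and 7 fell (median 0.67). Besides CDKN1A, TP53I3, a quinone oxidoreductase, rose to 46.0 and 51.8 CPM with BRM014, against 2.504 and 3.85 CPM with DMSO (3.92 ± 0.17). The nuclease AEN fell (-1.41 ± 0.12), as did the stress kinase PLK3 (-2.24 ± 0.25). In the BCL2 family, 5 of 16 rose and 6 fell. BCL2, which blocks mitochondrial apoptosis, fell to 59.8 and 64.5 CPM, against 272 and 275 CPM (-2.14 ± 0.07), while its relative MCL1 rose (0.52 ± 0.06). BBC3 (PUMA), a promoter of apoptosis, rose to 22.3 and 27.4 CPM, against 4.76 and 5.996 CPM (2.19 ± 0.17), and BIK, of the same subgroup, fell (-2.01 ± 0.19).

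Genes controlled by the KMT2A fusion in leukaemia were more often higher than lower. Of 25 tested, 12 rose and 5 fell (median 0.44); 3 fell when library size alone was the scaling. HOXA9, a homeobox factor that fusion leukaemias depend on, rose to 14.4 and 15.5 CPM with BRM014, against 7.95 and 7.89 CPM with DMSO (0.92 ± 0.19), and HOXA10 rose (0.93 ± 0.14). SENP6, a SUMO protease, was higher at 1031 and 938 CPM, against 425 and 442 CPM (1.18 ± 0.12). MEIS1, the partner of HOXA9, had 0 reads with BRM014 and 5 with DMSO, which is at least 1.682-fold lower, so THP-1 barely expressed it in either group.

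Immediate early genes and feedback genes of ERK signalling were higher as a group, with 15 of 27 rising and 6 falling (median 1.23). DUSP4, a phosphatase that switches ERK off, rose to 160.4 and 158 CPM with BRM014, against 4.38 and 5.45 CPM with DMSO (5.01 ± 0.14). FOSB, a subunit of AP-1, rose to 228 and 177 CPM, against 12.8 and 13.2 CPM (3.96 ± 0.21). ETV4, an ETS factor induced by ERK, fell (-3.004 ± 0.23). The AP-1 site TGACTCA, a palindrome but for its centre, was in 0 of the 26 windows of the 19 matched genes of this list. It was in 1 of 23 windows of the matched genes of matrix, proteases and serpins. Of all promoter windows 4.20% held it, and of those of genes tested 3.20%. At such shares, 0 of 26 windows does not tell this list apart from other genes.

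Secreted mediators were mixed. Of 25 cytokine and chemokine genes tested, 11 rose and 8 fell (median 0.87). CCL20 rose to 5.72 and 6.09 CPM with BRM014, against 0 and 0.4497 CPM with DMSO (4.54 ± 0.50), and IL1B rose (2.01 ± 0.55). The dendritic cell chemokine CCL22 had no read with BRM014 and 6.89 and 7.64 CPM with DMSO, at least 88.47-fold lower, and CCL23 fell to 2 reads in all, against 283. Of 33 interferon-stimulated genes, 14 rose and 9 fell (median 0.25). IFIT2, which binds viral RNA, rose to 16.8 and 15.9 CPM, against 1.81 and 1.55 CPM (3.28 ± 0.24), and IFIT1 was at 3.62 and 8.35 CPM in the BRM014 libraries, against 1.13 and 1.099 CPM in the DMSO libraries (2.41 ± 0.43). Of 20 complement genes, 10 rose and 3 fell (median 1.45). CR1, the complement receptor, rose to 16.4 and 16.9 CPM, against 0.626 and 0.6995 CPM (4.63 ± 0.34), SERPING1, the C1 inhibitor, rose (5.05 ± 0.54), and C1S, a protease of the classical pathway, fell to 0.262 and 0.232 CPM, against 8.83 and 8.69 CPM (-5.11 ± 0.47). Of 16 genes of prostaglandin and leukotriene synthesis, 7 rose and 8 fell. PLA2G7, a secreted phospholipase, rose (4.07 ± 0.33), and TBXAS1, thromboxane synthase, fell (-2.64 ± 0.23).

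Stress pathways showed single strong members within mixed lists. HMOX1, the haem-degrading oxygenase, rose to 22.2 and 27.3 CPM with BRM014, against 1.88 and 1.25 CPM with DMSO (4.004 ± 0.25), and NQO1, a quinone reductase, rose (1.49 ± 0.08), while 9 of 22 NRF2 and oxidative stress genes rose and 8 fell (median 0.13). FTH1, the ferritin heavy chain that stores iron, rose to 1550 and 1669 CPM, against 234 and 224 CPM (2.81 ± 0.11), with 5 of 13 iron genes higher and 5 lower. The zinc and iron importer SLC39A14 fell (-1.95 ± 0.07). Of 22 genes of the ATF4 response and serine synthesis, 7 rose and 10 fell, and without DMSO replicate 1 4 rose. DDIT4, an inhibitor of mTOR, rose (2.23 ± 0.17), and PSAT1, an enzyme of serine synthesis, fell to 18.9 and 18.3 CPM, against 101 and 103 CPM (-2.46 ± 0.10). Of 22 unfolded protein and heat shock genes, 6 rose and 11 fell (3 rose without DMSO replicate 1). XBP1, a factor of the unfolded protein response, rose to 558 and 514 CPM, against 128 and 135 CPM (2.03 ± 0.08), and HSPD1, the mitochondrial chaperonin, fell (-2.09 ± 0.08).

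The 10 largest rises among genes with at least 10 CPM in the higher group and no overlap were in genes of varied roles, among them ANGPTL4, given above. CTTN (chromosome 11, 70398404 to 70436584, plus strand), which encodes cortactin, an organiser of branched actin, rose to 158 and 159 CPM with BRM014, against 0.563 and 0.5996 CPM with DMSO (8.07 ± 0.17, adjusted p = 1.37e-17). CDH1 (chromosome 16, 68737225 to 68835548, plus strand), E-cadherin, had 33.8 and 28.6 CPM with BRM014 and no read with DMSO, at least 376.2-fold higher. It was called by edgeR (adjusted p = 9.01e-08) and not by DESeq2 (adjusted p = 0.145). COL1A1, a chain of collagen I, rose to 109 and 116 CPM, against 0.501 and 0.7495 CPM (7.44 ± 0.36). KDR, the receptor VEGFR2, was at 31.6 and 28.1 CPM in the BRM014 libraries, against 0.313 and 0.2998 CPM in the DMSO libraries (6.58 ± 0.37), and the guidance ligand SEMA3E was at 34.5 and 31.5 CPM in the BRM014 libraries, against 0.2504 and 0.1999 CPM in the DMSO libraries (7.17 ± 0.45). MAP1A, a microtubule-associated protein, rose to 29.9 and 33.9 CPM, against 0.0626 and 0.6995 CPM (6.24 ± 0.42). RILPL1, a regulator of cilia, had 442 reads with BRM014 and 3 with DMSO, a ratio of 146.0 (95% interval 49.63 to 710.6). GFRA2, a co-receptor of neurotrophic factors, and the orphan receptor GPRC5B were the others of these 10 (6.59 ± 0.53 and 6.27 ± 0.60).

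Lists of actin and adhesion genes were mixed. Of 29 actin cytoskeleton genes, 10 rose and 14 fell (median -0.12). SYNPO, an actin-bundling protein, rose to 242 and 253 CPM with BRM014, against 8.14 and 5.35 CPM with DMSO (5.22 ± 0.14). CORO1A, the coronin of blood cells, fell to 75.2 and 81.5 CPM with BRM014, against 433 and 447 CPM with DMSO (-2.49 ± 0.12), ACTB fell to 4909 and 4941 CPM, against 8826 and 8989 CPM (-0.85 ± 0.07), and the non-muscle myosin MYH9 rose to 4444 and 4754 CPM, against 1519 and 1520 CPM (1.60 ± 0.06). Of 20 integrin and adhesion genes, 7 rose, among them the laminin receptor ITGA6 (3.02 ± 0.13), and 8 fell, among them the hyaluronan receptor CD44, at 18.8 and 23.3 CPM in the BRM014 libraries, against 127 and 120.3 CPM in the DMSO libraries (-2.56 ± 0.13). Of 24 genes of matrix, proteases and serpins, 14 rose and 5 fell (median 0.65). THBS1, thrombospondin, rose to 29.7 and 34.5 CPM, against 0.939 and 1.05 CPM (4.996 ± 0.42), and SRGN, the core of granule proteoglycans, to 5839 and 5639 CPM, against 1760 and 1855 CPM (1.67 ± 0.07). Of the 8 markers of epithelial cells and fibroblasts checked for foreign cells, COL1A2 and COL3A1 had no read in any of the 4 libraries. EPCAM had 5 reads in all with BRM014 and 1 with DMSO, KRT18 had 6 and 0, and DCN had 16 and 0. Of the 5 markers tested, 3 were called higher and 0 lower, against 30.9% and 28.0% of all genes tested. The list summed to 143.6 and 146.8 CPM with BRM014, against 2.13 and 2.65 CPM with DMSO, and CDH1 and COL1A1 made up most of it.

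The largest falls were in genes whose reads all but vanished. DCANP1 had no read with BRM014 and 35.9 and 36.7 CPM with DMSO, at least 440.0-fold lower. It overlaps TIFAB on the same strand, so their separate counts are uncertain. GPA33, a cell surface antigen, had no read with BRM014 and 11.5 and 12.3 CPM with DMSO, at least 144.7-fold lower. SASH3, a signalling adapter of blood cells, fell to 0.105 and 0.174 CPM, against 42.3 and 49.6 CPM (-8.32 ± 0.24), with 2 and 3 reads in the BRM014 libraries. SERPINB2, the plasminogen activator inhibitor of monocytes, fell to 3.41 and 2.03 CPM, against 394 and 418 CPM (-7.21 ± 0.20, adjusted p = 2.81e-15). TGM5, a transglutaminase, fell to 0.262 and 0.174 CPM, against 31.8 and 34.03 CPM (-7.18 ± 0.38). The mucin gene MUC19 and the long non-coding RNA CCDC26 each kept 1 read with BRM014, against 797 and 786 with DMSO. The phospholipase gene PLB1 kept 3 reads, against 1246, and TRPC2, a pseudogene in humans, kept 2, against 419.

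**Figure D3:**
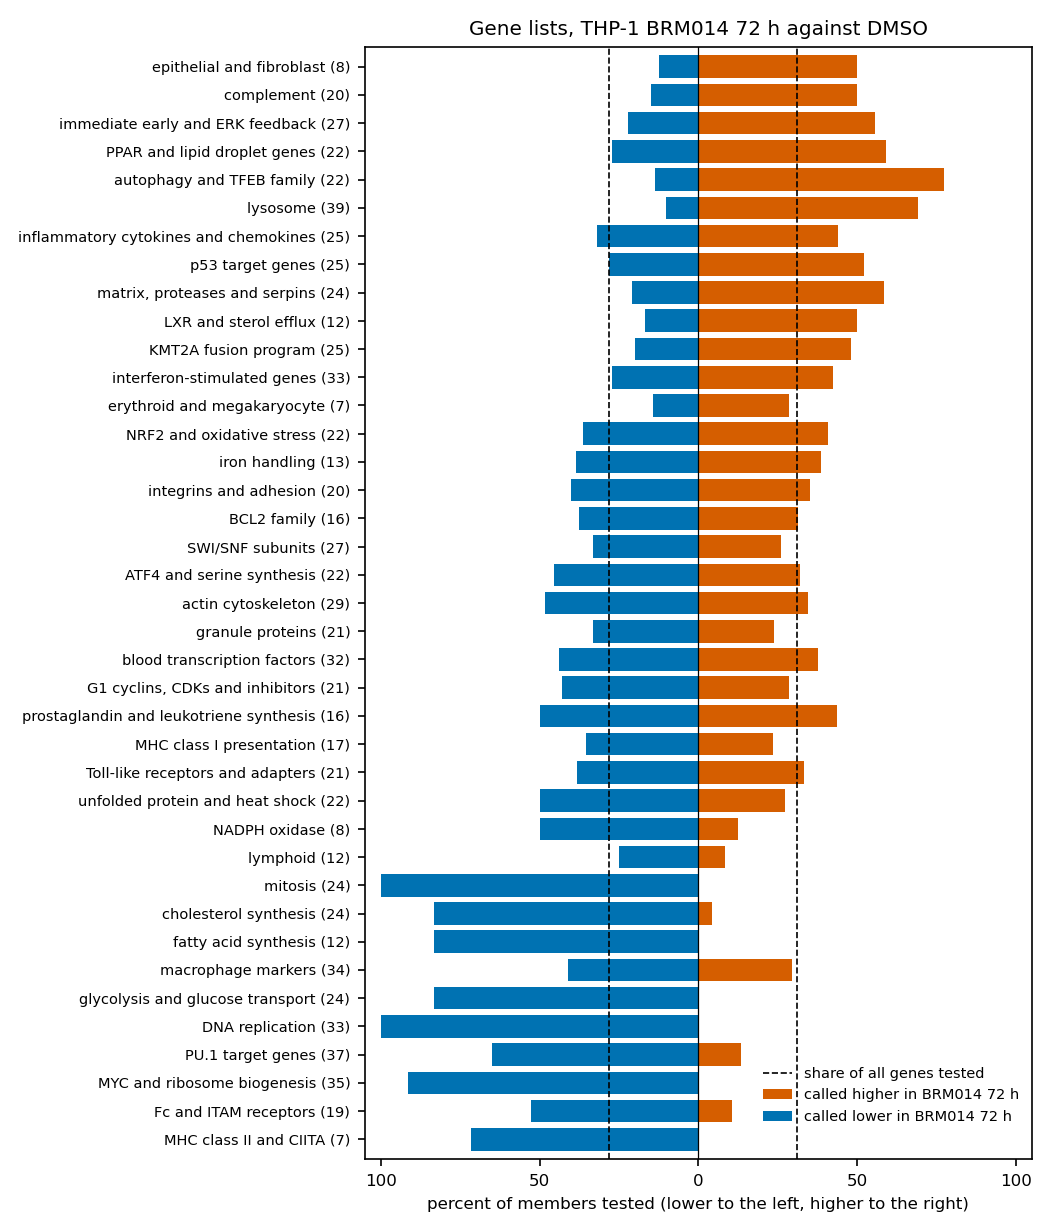
Percent of tested members called higher (right, orange) or lower (left, blue) in BRM014 72 h against DMSO for 39 gene lists, ordered by median log2 fold change, with the number tested in brackets; dashed lines mark the shares of all genes tested, 30.9% and 28.0%. Replication and mitosis genes were all lower, and autophagy and lysosome genes had the highest shares of rises.

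The 72 h libraries were also set against 24 h of the same exposure, which shares no DMSO library. Of genes tested, 2724 were higher at 72 h than at 24 h (16.2%) and 2766 lower (16.5%). Without 24 h replicate 1 the first count was 1734. Mitosis genes separated the times: all 24 were lower at 72 h than at 24 h, while at 24 h against DMSO 5 were higher and 2 lower (25.9% and 24.1% of genes tested). PLK1 was at 83.2 and 76.6 CPM at 72 h, against 189 and 186 CPM at 24 h (-1.23 ± 0.07, adjusted p = 4.33e-10). Of the DNA replication genes, 28 of 33 were already lower at 24 h than with DMSO, and 31 were lower at 72 h than at 24 h. Of 24 cholesterol synthesis genes, 11 were lower at 24 h than with DMSO, and 19 were lower at 72 h than at 24 h. INSIG1 was at 18.4 and 19.4 CPM at 72 h, against 53.04 and 57.1 CPM at 24 h (-1.55 ± 0.08). SLC2A1 was at 60.7 and 67.7 CPM, against 167 and 174 CPM (-1.41 ± 0.09).

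Other genes were higher at 72 h than at 24 h. Of 39 lysosome genes, 20 were already higher and 5 lower at 24 h than with DMSO (25.9% and 24.1% of genes tested). Between the times, 21 were higher at 72 h than at 24 h and 2 lower. APOE was at 223 and 256 CPM at 72 h, against 27.0 and 28.4 CPM at 24 h (3.11 ± 0.16, adjusted p = 7.35e-11). COL1A1 was at 109 and 116 CPM, against 10.4 and 9.69 CPM (3.48 ± 0.26), and CD14 at 53.2 and 59.2 CPM, against 12.2 and 14.98 CPM (2.05 ± 0.15). ABCC3, an export pump for organic anions, had the largest rise after 24 h among called genes averaging at least 10 CPM at either time, at 25.5 and 26.2 CPM at 72 h, against 1.64 and 2.11 CPM at 24 h (3.78 ± 0.23). MYC and IRF8 had reached their low level by 24 h. MYC was at 18.2 and 17.5 CPM at 72 h, against 19.3 and 17.2 CPM at 24 h (-0.03 ± 0.10, adjusted p = 0.856), and IRF8 was slightly higher at 72 h (0.30 ± 0.09).

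Part of the immediate early response had passed by 72 h, with 17 of 27 of these genes lower at 72 h than at 24 h and 3 higher. The zinc finger factor EGR3 was at 8.92 and 3.999 CPM at 72 h, against 162 and 139 CPM at 24 h (-4.53 ± 0.29, adjusted p = 1.62e-09), and at 2.504 and 0.849 CPM with DMSO. EGR2 was at 1.84 and 0.5796 CPM at 72 h, against 27.0 and 22.1 CPM at 24 h (-4.32 ± 0.49). BTG2, an inhibitor of proliferation, was at 60.1 and 40.3 CPM, against 396 and 374 CPM (-2.94 ± 0.16). VPS52, a vesicle tethering subunit named by the same rule, rested on 1 library, with 26.4 and 0.5796 CPM at 72 h, against 1.28 and 1.17 CPM at 24 h. Without 72 h replicate 1 its difference turned to -1.07 (adjusted p = 0.592).

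**Figure D4:**
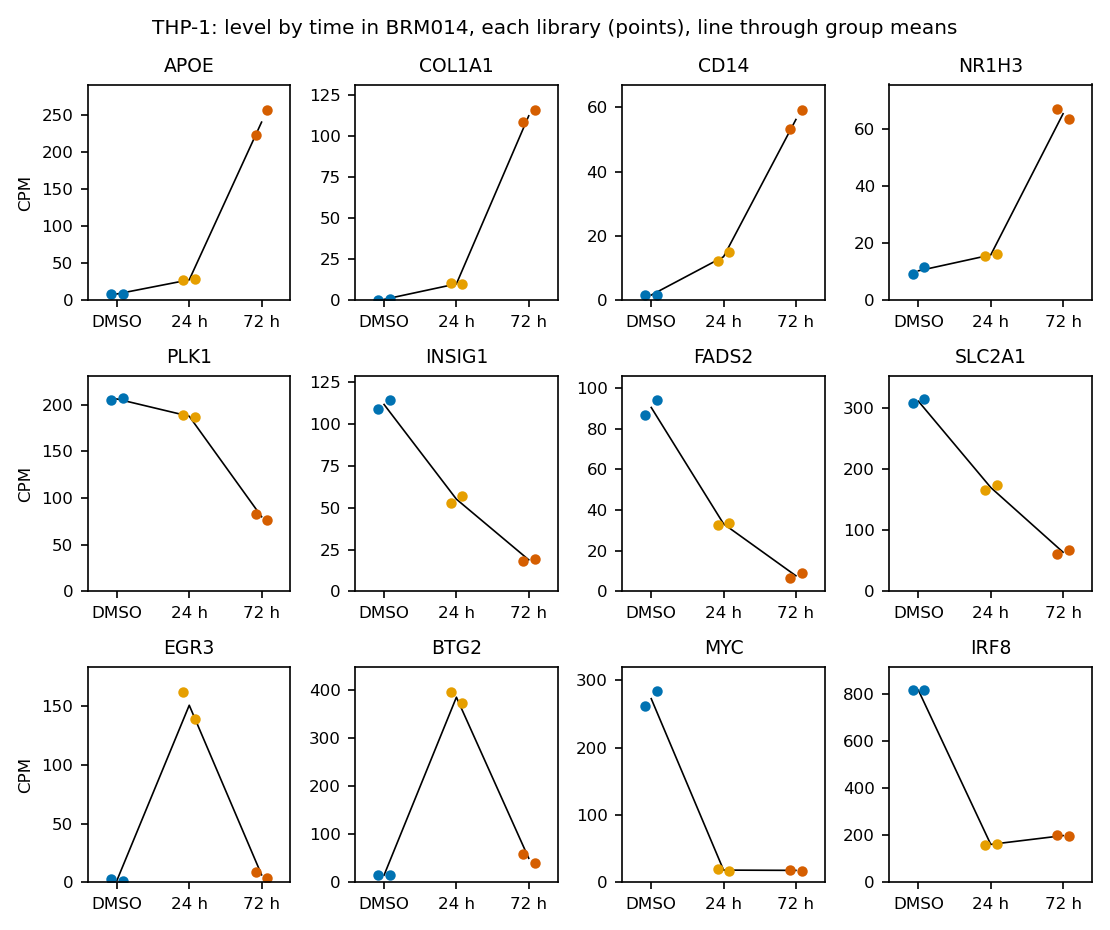
Level in CPM of 12 genes in THP-1 cells with DMSO and after 24 h and 72 h of BRM014, each library as a point and a line through the group means; every vertical axis starts at 0. In CPM, most of the rise of APOE, COL1A1, CD14 and NR1H3 came after 24 h. APOE, COL1A1 and CD14 were already above DMSO at 24 h. PLK1 fell after 24 h, EGR3 and BTG2 peaked at 24 h, and MYC and IRF8 were low at both times.

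The same 72 h contrast in MOLM-13 and MV-4-11 shares no library with THP-1. Of the 5188 genes called higher in THP-1, 2275 were called higher in all 3 lines, which is 43.9% of the THP-1 calls, 44.8% of those in MOLM-13 and 47.7% of those in MV-4-11. Of the 4697 called lower in THP-1, 2431 were lower in all 3 lines, which is 51.8%, 49.2% and 55.5% of the calls in THP-1, MOLM-13 and MV-4-11. The single lines had 30.3% of genes higher and 29.4% lower in MOLM-13, and 28.4% and 26.1% in MV-4-11. The difference itself, the THP-1 effect minus the mean of the effects in the other lines, was called for 2738 genes with a higher value in THP-1 (16.3%) and 2964 with a lower one (17.6%). Genes with no read in both groups of one of the other lines, 1456 of those tested, could not be called for this difference in edgeR, and 586 of them were called in THP-1 against DMSO.

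LYZ was the clearest difference among abundant genes. It was at 403 and 394 CPM with BRM014, against 246 and 229.6 CPM with DMSO in MOLM-13 (0.74 ± 0.07), and at 141 and 130.0 CPM, against 174 and 183 CPM in MV-4-11 (-0.40 ± 0.07), so that the THP-1 effect was lower by -4.55 ± 0.09 (adjusted p = 4.57e-18). IGSF6, an immunoglobulin-like receptor of myeloid cells, fell in THP-1 to 0.734 and 0.696 CPM, against 22.4 and 19.8 CPM (-4.87 ± 0.37; difference -6.19 ± 0.52). The fall of SPI1 was deeper in THP-1 (difference -1.71 ± 0.14), with -0.87 ± 0.11 in MOLM-13 and -0.89 ± 0.11 in MV-4-11. The falls of IRF8, MYC and BCL2 were smaller in THP-1, with differences of 2.67 ± 0.11, 1.66 ± 0.11 and 1.46 ± 0.09. Of 19 Fc and ITAM receptor genes, 11 had a lower effect in THP-1 and 0 a higher one, against 17.6% and 16.3% of genes tested.

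CDKN1A rose in THP-1 (4.05 ± 0.09) and in MV-4-11 (2.83 ± 0.09) and fell in MOLM-13 (-0.47 ± 0.08), a difference of 2.88 ± 0.11. CCND1 was likewise higher in THP-1 by 2.91 ± 0.18. Lysosome genes rose less in THP-1 than in the mean of the other lines, with 27 of 39 called lower for the difference and 6 higher. The prostaglandin D synthase gene PTGDS rose in THP-1 (3.30 ± 0.21), and was at 237 and 233 CPM with BRM014, against 0.196 and 0.923 CPM with DMSO in MOLM-13 (difference -5.52 ± 0.37). SDC3, a heparan sulfate proteoglycan, rose in THP-1 (1.34 ± 0.16) and was at 20.2 and 20.4 CPM, against 1.701 and 0.497 CPM in MOLM-13 (difference -5.67 ± 0.46, or -4.79 in limma-voom). It had no read with DMSO in MV-4-11, so the fitted difference is not a bound. The phosphatase PTPRS rose in THP-1 to 154 and 161 CPM, against 24.2 and 25.98 CPM, and fell in MV-4-11 to 0.113 and 0.203 CPM, against 12.9 and 11.5 CPM (difference 5.85 ± 0.74). Without MOLM-13 DMSO replicate 1 this difference was 3.35 and was not called (adjusted p = 1.0). LOC100130872, an uncharacterised transcript, rose in THP-1 (1.90 ± 0.22) and fell in MOLM-13 to 0.483 and 0.156 CPM, against 61.5 and 68.3 CPM (difference 8.95 ± 0.33). FBLN1, fibulin of the matrix, and the flippase ATP9A rose in THP-1 (2.62 ± 0.29 and 1.77 ± 0.26). FBLN1 had 0 reads with BRM014 and 10 with DMSO in MOLM-13, and 1 and 24 in MV-4-11. ATP9A had 0 reads with BRM014 and 36 with DMSO in MOLM-13. The line differences of both genes therefore also hold these falls, which rest on few reads.

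For genes with no reads in another line, the difference was taken from limma-voom, a linear model on weighted log2 CPM. CDH1 had a difference of 9.76 (adjusted p = 1.45e-05), with no read in either MOLM-13 group and 0.113 and 0 CPM with BRM014 in MV-4-11. The same fit gave 7.49 for SEMA3E (adjusted p = 7.87e-07), 6.69 for KDR (3.13e-07), -5.76 for SERPINB2 (2.29e-05) and -8.56 for GPA33 (4.63e-07). Where a gene has no reads in a line, no fall can be seen there. The values for SERPINB2 and GPA33 therefore do not show that the other lines responded differently. In MOLM-13, SERPINB2 had 1 read in all with BRM014 and 5 with DMSO.

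**Figure D5:**
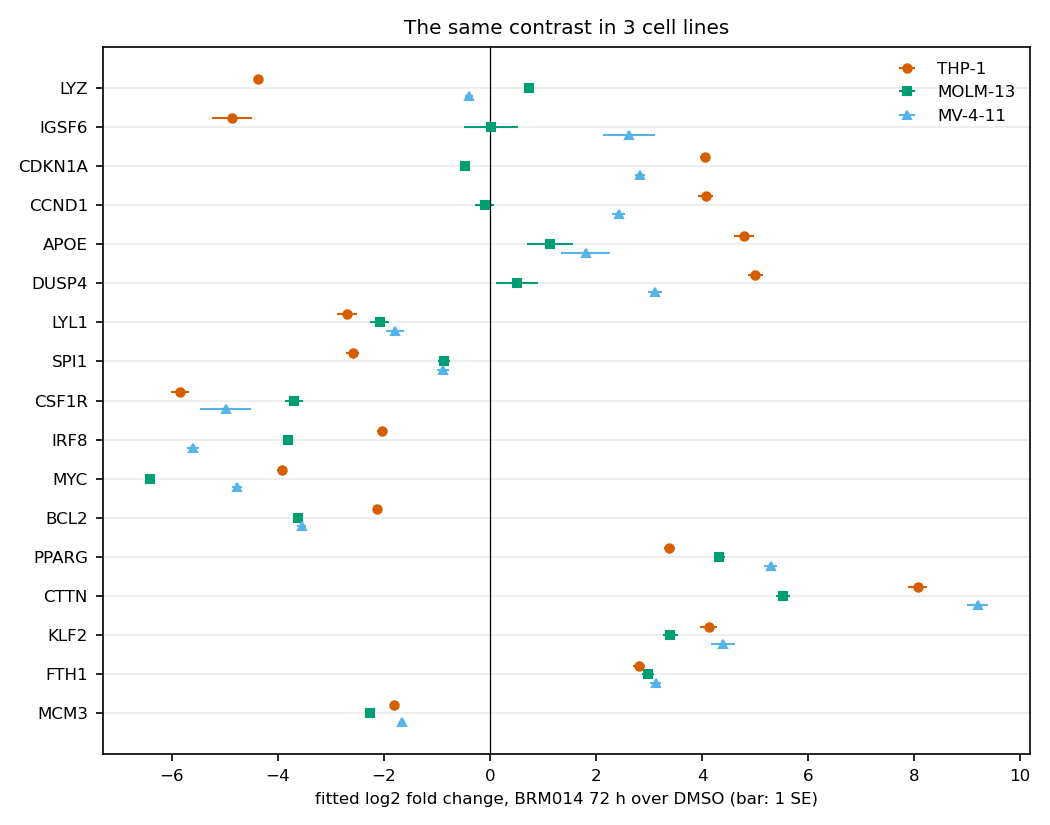
Fitted log2 fold change of BRM014 72 h over DMSO (horizontal, bars 1 standard error) for 17 genes in THP-1, MOLM-13 and MV-4-11. LYZ and IGSF6 fell in THP-1 and were near 0 or above it in MOLM-13 or MV-4-11, CDKN1A, CCND1, APOE and DUSP4 were highest in THP-1, and PPARG, CTTN, KLF2 and FTH1 rose in all 3 lines.

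PMA and DB2313 were compared with the same DMSO libraries as BRM014, so their values are set beside it without a test of likeness. The DB2313 libraries were registered apart from the DMSO libraries. An effect of DB2313 and one of a possible separate batch cannot be told apart. SPI1 had log2 fold changes of -2.59 ± 0.12 with BRM014 at 72 h, -0.17 ± 0.11 with DB2313 and 0.48 ± 0.11 with PMA. CSF1R was at -5.85 ± 0.17 with BRM014, 0.50 ± 0.11 with DB2313 and 2.67 ± 0.11 with PMA, so its sharp fall was seen in the BRM014 libraries among these 3 treatments. LYZ was at -4.38 ± 0.08, -4.997 ± 0.08 and 2.27 ± 0.07 in the same order. CD14 was higher in all 3, at 5.07 ± 0.21, 7.09 ± 0.20 and 6.11 ± 0.20, as was CDKN1A, at 4.05 ± 0.09, 3.68 ± 0.09 and 2.51 ± 0.09. ITGAM, not called with BRM014, was at 3.90 ± 0.10 with DB2313 and 3.11 ± 0.10 with PMA. CTTN was at 8.07 ± 0.17 with BRM014, 2.06 ± 0.29 with DB2313 and -0.11 ± 0.41 with PMA. Of the 37 PU.1 target genes, 24 fell and 5 rose with BRM014. With DB2313, 22 were called higher and 11 lower (median 1.09), against 35.9% and 29.5% of genes tested. With PMA, 25 were called higher and 4 lower (median 0.93), against 18.9% and 17.1%. What moved this list was not tested.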

How the data were processed

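Polyadenylated RNA of cultured cells was sequenced. The authors deposited raw read counts by gene symbol, 1 file a library, not normalized. Tools and build named in the submitters' processing notes are hg38, HTSeq, DESeq2 and HISAT2 2.1.0; the annotation and strand setting are not given in the sources used here. Genes that overlap or have near-identical copies are therefore uncertain. The 5 summary lines of each file, with 19.2% and 18.8% of reads in no gene in the BRM014 72 h libraries and 16.5% and 15.8% in the DMSO libraries, entered neither library sizes nor tests. Reads in genes numbered 15893489 to 21565666 per library over the series.

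All 22 libraries entered 1 edgeR 4.0.16 fit (R 4.3.3) with a coefficient for each of 11 groups. filterByExpr with a minimum count of 10 left 16794 genes; scaling was by TMM, tests were edgeR's quasi-likelihood F test, and p-values were adjusted by Benjamini-Hochberg across the genes kept. Contrasts were THP-1 BRM014 72 h with DMSO, 72 h with 24 h, and the THP-1 effect at 72 h minus the mean of the effects in MOLM-13 and MV-4-11. Alternatives were DESeq2 1.42.0, limma-voom (limma 3.58.1), other scalings, filters and sets of libraries, and leaving out each library. A group at 0 reads was set to 3 counts for a bound; with 1 to 3 counts a ratio has an exact 95% interval. Bounds and intervals cover counting error only.

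The 39 gene lists (840 symbols, 789 tested) and all comparisons were chosen with earlier results of these data known, so lists are described by counts and medians. Genes named in the text are the 10 largest rises and falls with at least 10 CPM in the higher group and no overlap, the 5 largest rises and falls in CPM, the 5 largest differences between lines in each direction, the 3 largest between times, up to 2 called rises and 2 falls of each list, and 20 further genes listed by name, 180 in all; not all are printed, and a few are not reported here. AIF1, BTK, PRTN3, CTSD and MCOLN1 are list members with a motif and the largest changes, after the exclusion of a chromosome given with the sequences. Positions are from GENCODE v29 by symbol (25815 symbols matched), and promoters from RefSeq.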

Additional observations from a re-analysis of the deposited data

Results flagged for a closer look

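The effect of BRM014 at 72 h differed between THP-1 and the mean of MOLM-13 and MV-4-11 for 2738 genes with a higher and 2964 with a lower value in THP-1 (edgeR quasi-likelihood test of the difference itself, adjusted p under 0.05). Among the genes named by rule and reported here, 26 had a called difference of at least 3 on the log2 scale. No explanation was tested.

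Higher in THP-1 were LOC100130872 (8.95), FBLN1 (7.59), ANGPTL4 (6.92), PTPRS (5.85), ATP9A (5.60), ITGAX (5.38), GPRC5B (5.36), SPARC (4.88), CD8A (4.59), COL1A1 (3.78), THBS1 (3.58), DDIT4 (3.35), APOE (3.32), DUSP4 (3.20), FOSB (3.05) and CCL20 (3.02). For ITGAX the difference stands for a fall in THP-1 that was smaller than in MOLM-13, where the integrin had no read with BRM014. CD8A was under 1 CPM in each THP-1 library of both groups.

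Lower in THP-1 were CLEC5A (-8.11), C1S (-6.85), ATP6V0D2 (-6.58), IGSF6 (-6.19), RNF157 (-5.69), SDC3 (-5.67), PENK (-5.63), PTGDS (-5.52), LYZ (-4.55) and SMARCB1 (-3.39). Fitted differences are not bounds for genes with no read in 1 of the 6 groups compared, and their order has no meaning. For these limma-voom gave -4.96 for CLEC5A, -5.07 for ATP6V0D2, -2.95 for RNF157, -4.79 for SDC3, -3.11 for PENK, 6.21 for FBLN1, 4.603 for ATP9A and 4.41 for ITGAX.

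Leaving out 1 library ended the call for 7 of these genes. PTPRS was at 3.35 without MOLM-13 DMSO replicate 1, and THBS1 at 1.55 without MOLM-13 DMSO replicate 2 and 5.38 without MOLM-13 BRM014 replicate 2. RNF157 was at -3.41 without MOLM-13 BRM014 replicate 2 and -3.84 without MV-4-11 BRM014 replicate 1, where PENK was at -3.44. CLEC5A was at -6.30 and -6.95 without replicate 2 of BRM014 in MOLM-13 and in MV-4-11, with the call lost in each. CD8A was at 2.19 without MV-4-11 DMSO replicate 2 and 9.08 without THP-1 DMSO replicate 1, and lost its call in 5 such fits. SMARCB1 was at -0.85 without THP-1 DMSO replicate 2 (adjusted p = 0.687) and lost its call in 3 other such fits, in limma-voom (-2.29), with the replicate block (-2.98) and in the robust fit (-3.39). CCL20 kept its call and was at 8.27 without THP-1 DMSO replicate 2.

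The share of reads counted in no gene, which is outside the comparisons, was 19.2% and 18.8% in the BRM014 72 h libraries (replicates 1 and 2), against 16.5% and 15.8% in the DMSO libraries. Which transcripts hold these reads was not analysed here.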

How the results depend on the processing

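Counts of genes higher and lower in BRM014 72 h against DMSO were within 1.5 times of 5188 and 4697 under every alternative run: 5731 and 4210 with library size alone, which moved the median of all genes to 0.14, 4985 and 4574 with DESeq2, 5380 and 4832 with limma-voom, and 4340 to 4581 and 4092 to 4257 leaving out 1 library. Libraries with the same THP-1 replicate number showed no shared deviation (correlation of deviations between the 2 groups -0.02), which does not settle whether they were paired. With the replicate numbers as a block, 5015 and 4566 genes were called. Of 72 h against 24 h, 1734 to 1960 genes were higher and 1946 to 2049 lower leaving out 1 library. The cause was not tested. Of 2693 values of named genes under alternatives, 33 lost their call, 10 gained one and 9 turned sign. VPS52 against DMSO was at -1.53 with limma-voom and -4.43 to 1.07 leaving out 1 library, and against 24 h at -1.07 to 4.43. SMARCB1 ran from -3.11 to 0.28, CEBPA from -0.0012 to 0.12 and ITGAM from -0.12 to 0.20 leaving out 1 library, with ITGAM at -0.018 when 10 THP-1 libraries were fitted, -0.0044 with 18 and -0.0141 with 4. Of the calls, 2613 were lost in at least 1 fit without a library. A level of 0.149 to 0.188 CPM stands for 3 reads in a library, so fitted folds of genes near it rest on few reads.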
